A study of Mus musculus with 4 samples.

Results

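The insulin-like growth factor genes examined here are the ligands Igf1 and Igf2, their receptor Igf1r and the binding proteins Igfbp1 to Igfbp7. They were named as a family and chosen with results of these arrays in view: the family was picked on the streptozotocin differences of Igfbp5 and Igf1. All 10 genes were on the array, with 12 of its 1246 probe sets, and 909 genes had a name in all. Shares and ranks below refer to this limited set of probe sets and not to all mouse genes. The arrays held RNA of wild-type mouse vascular smooth muscle cells, which give the artery wall its tone. Every cell sample was kept in osteogenic medium, an additive mix that turns such cells bone-like, and 2 of the 4 arrays came from cells that also received 0.4 mM streptozotocin. Streptozotocin carries a glucosamine group on a nitrosourea and is best known for killing the insulin-making cells of the pancreas. The cultures were named WT2 (replicate 1) and WTA (replicate 2), and each gave 1 control and 1 streptozotocin array. No label ties the culture names to different animals, so p-values measure only the spread between these arrays.

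Insulin-like growth factors are secreted peptides that resemble insulin and drive growth and survival through Igf1r, a tyrosine kinase at the cell surface. The binding proteins hold them outside the cell, prolong their life and either block or help their access to the receptor, and some also act on cells or matrix without a growth factor. In the artery wall smooth muscle cells make both ligands and binding proteins, and in bone Igfbp5 is stored in the mineralised matrix.

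Values are log2 expression summaries per probe set, so a difference of 1 is a doubling. Members were not ranked against each other by level; the position of a probe set among all values of an array is given only to mark dim and bright ones. The array medians lay between 5.83 and 5.87 and the lower quartiles between 4.39 and 4.40. With 4 arrays the precision is low. Of 12 probe sets of the family 11 lay above the array median on all 4 arrays, and that of Igfbp1 lay below the lower quartile on all 4. The control array of WT2 stood farthest from the rest: it correlated with the others at 0.977 to 0.988 across probe sets, and the pair of WTA arrays at 0.997. Of 9 smooth muscle markers and 9 osteoblast markers 0 had a named probe set, so the labelled cell type could not be checked against them. The 3 measured fibroblast markers, Dcn, Lum and Pdgfra, summed to 35.78 and 33.68 in the control and streptozotocin arrays of WT2 and to 33.78 and 32.71 in those of WTA. Of 12 endothelial markers 6 were measured, with sums of 30.11 and 31.83 in WT2 and of 39.06 and 39.80 in WTA. Much of that gap was Esm1, higher in WTA by 4.93 at its brightest probe set and by 2.93 at a second one. Thbd, Emcn and Selp were higher in WTA by 1.335, 1.215 and 0.79. Pecam1 and Sele differed by 0.15 and 0.05 and lay below the lower quartile on every array. The 5 measured of 14 leukocyte and macrophage markers summed to between 23.18 and 24.0, and 3 of them, Mrc1, Clec4d and Adgre1, lay below the lower quartile on all 4 arrays. Fewer cells of a type and less RNA per cell cannot be told apart in such data, and the part of other cell types in the results below was not tested.

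The ligand Igf1 was lower with streptozotocin in both cultures. Its log2 level in WT2 was 10.50 in the control array and 9.86 with streptozotocin, and in WTA it was 9.35 and 8.12. Both WTA arrays lay below both WT2 arrays, and the treatment groups overlapped, since the treated WT2 array stood above the WTA control. The difference, streptozotocin minus control, was -0.64 in WT2 and -1.23 in WTA, so control exceeded streptozotocin 1.56-fold and 2.34-fold. Averaged over the cultures, control stood at 9.92 ± 0.81 and streptozotocin at 8.99 ± 1.23 (SD, n = 2 each).

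Igfbp5 binds both ligands and also the extracellular matrix. Its level in the control array of WT2 was 12.05, in the control array of WTA 8.93, in the treated array of WT2 8.38 and in the treated array of WTA 6.98. It was the only probe set of the family whose treatment groups did not overlap (1 of 12), while 24.6% of all probe sets on the array had groups apart in 1 direction or the other. Control exceeded streptozotocin 12.8-fold in WT2 and 3.87-fold in WTA, log2 differences of -3.67 and -1.95. The mean level was 10.49 ± 2.21 over the control arrays and 7.68 ± 0.99 over the treated ones (SD, n = 2 each). The span of Igfbp5 over the 4 arrays, 5.07, ranked at position 2 among the 1246 probe sets. That span includes the streptozotocin differences on which the family was picked, so the rank is a description only. Without the control array of WT2, the array that stood farthest from the rest, the difference was -1.25. That value sets the treated arrays of both cultures against the WTA control alone, so it mixes in the culture difference.

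Igf1 and Igfbp5 were also the members that differed by over 1.5-fold downwards in both cultures (2 of 12 probe sets), and 0.482% of all probe sets did so. Within WT2 alone 4 of the 12 went past 1.5-fold in either direction (Igf1, Igf2, Igfbp2 and Igfbp5), against 7.3% of all probe sets, and within WTA 2 did, against 2.33%. With 1 array per arm in each culture there is no test within a culture, and since the family was picked on this contrast these counts describe it only. In the limma fit of all arrays 0 of the 12 probe sets, and 0% of the 1246, passed an adjusted p under 0.05. At an unadjusted p under 0.05 that fit had 0 of the 12 and 2.01% of the 1246. Blocking on the replicate number set each treated array against the control of its own culture. In that fit limma had 2 of the 12 at an unadjusted p under 0.05, Igfbp5 and Igf1 (SE 0.46 and 0.18), against 6.42% of all. The family was picked on the streptozotocin differences of these 2 genes, so this count too describes it only. After adjustment 0 of the 12 passed again (limma adjusted p = 0.585 for Igfbp5 and 0.608 for Igf1).

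**Figure D1:**
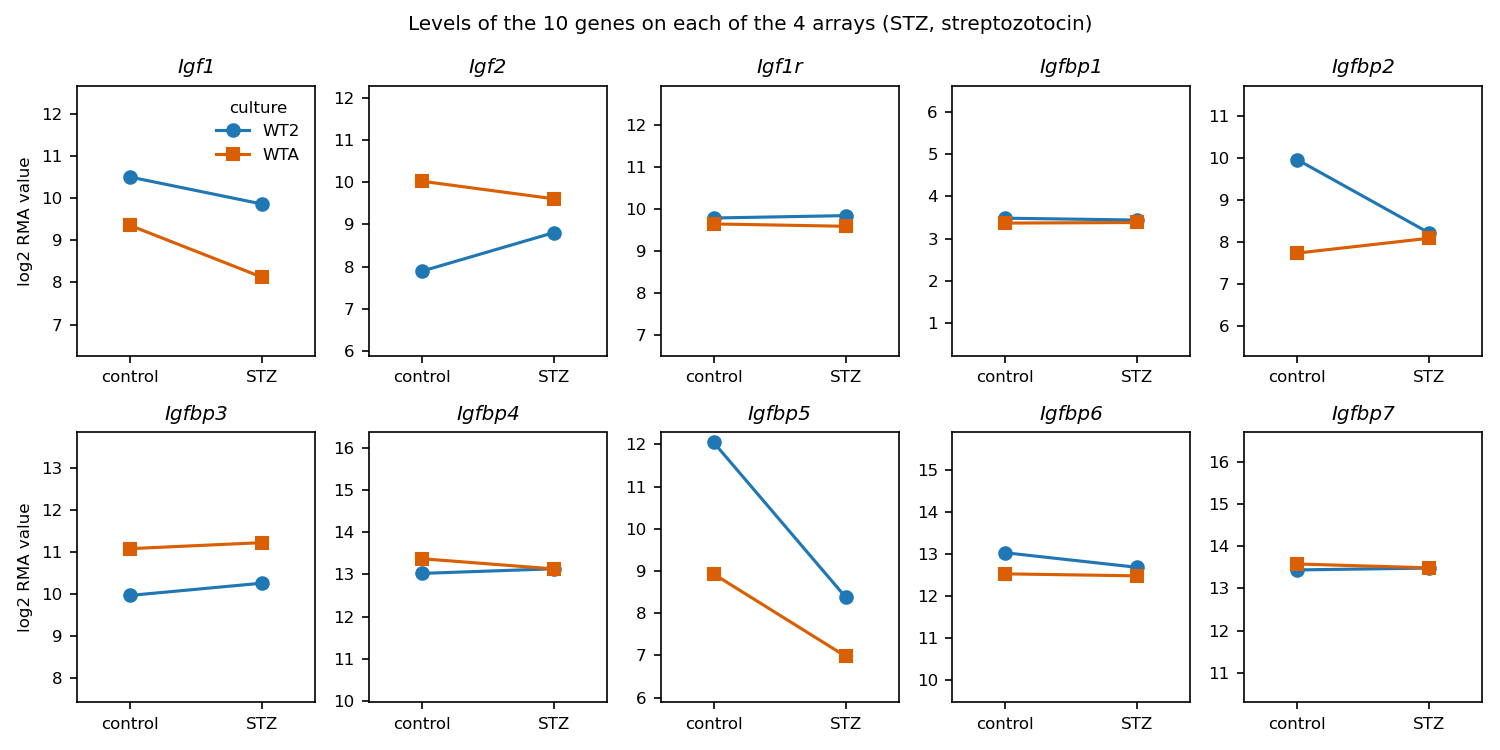
Log2 level of each gene (y axis; each panel spans the same number of log2 units) in control and streptozotocin (STZ) arrays, with a line for each culture, WT2 in blue circles and WTA in orange squares. Each point is 1 array, and a gene with several probe sets is shown by the brightest. Igfbp5 and Igf1 are lower with streptozotocin in both cultures, Igfbp2 and Igf2 go opposite ways in the cultures, and Igf1r, Igfbp1 and Igfbp7 are nearly flat.

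The promoter windows of the genes on which the results turn are shown as reference sequence from RefSeq (build GRCm38.p6, 300 bases around a transcript start, most of them before it, each on the gene's strand). The arrays do not show which start the cells used. Igfbp5 and Igf1 are the pair that was lower in both cultures, Igfbp2 is the next protein-coding gene beside Igfbp5 on chromosome 1, and Igfbp3 is the member with the smallest p between the cultures. Capitals mark every match, on either strand, to any of 5 motifs: TATAAA (the TATA box), CANNTG (the E-box), GGGCGG (the GC box bound by Sp1), ACCACA (the core of the Runx site) and TGANTCA (the AP-1 site). The windows lie at chr1:72874816-72875115 on the minus strand for Igfbp5, chr10:87860861-87861160 on the plus strand for Igf1, chr1:72824230-72824529 on the plus strand for Igfbp2 and chr11:7213874-7214173 on the minus strand for Igfbp3.
Igfbp5: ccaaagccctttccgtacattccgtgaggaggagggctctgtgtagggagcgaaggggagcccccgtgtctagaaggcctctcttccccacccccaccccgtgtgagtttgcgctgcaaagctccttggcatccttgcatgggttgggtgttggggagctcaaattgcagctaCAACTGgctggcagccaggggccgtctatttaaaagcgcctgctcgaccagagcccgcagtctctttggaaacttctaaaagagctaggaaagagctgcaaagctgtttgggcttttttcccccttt
Igf1: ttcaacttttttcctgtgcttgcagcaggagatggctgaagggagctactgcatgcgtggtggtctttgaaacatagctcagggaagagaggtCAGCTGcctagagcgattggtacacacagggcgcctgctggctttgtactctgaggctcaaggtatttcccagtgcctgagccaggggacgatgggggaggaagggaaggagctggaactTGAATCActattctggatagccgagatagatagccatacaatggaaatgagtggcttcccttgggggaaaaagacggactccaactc
Igfbp2: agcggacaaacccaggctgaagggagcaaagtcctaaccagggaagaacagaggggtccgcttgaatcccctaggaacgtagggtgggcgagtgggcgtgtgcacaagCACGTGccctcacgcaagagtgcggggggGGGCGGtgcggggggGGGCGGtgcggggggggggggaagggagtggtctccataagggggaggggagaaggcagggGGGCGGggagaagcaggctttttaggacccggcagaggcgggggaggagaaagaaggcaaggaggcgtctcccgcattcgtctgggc
Igfbp3: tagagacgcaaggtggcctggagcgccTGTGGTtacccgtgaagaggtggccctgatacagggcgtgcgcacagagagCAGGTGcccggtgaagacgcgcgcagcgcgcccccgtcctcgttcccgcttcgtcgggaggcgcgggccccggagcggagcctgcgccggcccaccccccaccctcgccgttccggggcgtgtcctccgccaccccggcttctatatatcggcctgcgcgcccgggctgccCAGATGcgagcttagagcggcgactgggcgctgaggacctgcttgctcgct

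In these windows Igfbp5 had 1 E-box, and Igf1 had 1 E-box and 1 match to the AP-1 motif as searched. That match reads TGAATCA, since the search allowed any base in the middle. The Igfbp2 window shown had 3 GC boxes and 1 E-box, while a second window listed for that gene, not shown, had 0 GC boxes, 2 E-boxes and 1 AP-1 site, and that of Igfbp3 had 2 E-boxes and 1 Runx core. Over the 14 windows that the table lists for the 10 genes, an E-box was in 10 (72.3% of the table's 32851 windows hold one) and a GC box in 5 (35.7% of all). A TATA box was in 2 (13.6% of all), an AP-1 site in 2 (7.8% of all) and the Runx core in 1 (16.8% of all). A match of letters is not a bound site, and the absence of one says nothing of a factor. No motif searched contains another.

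The ligand Igf2, a growth factor of fetal tissues, followed another pattern than Igf1. Its level in WT2 was 7.89 in the control array and 8.81 with streptozotocin, and in WTA it was 10.02 and 9.61. Both WTA arrays lay above both WT2 arrays, the reverse of Igf1. Streptozotocin minus control was 0.91 in WT2 and -0.42 in WTA, so the cultures lay closer together with streptozotocin than without it (0.80 against 2.13, WTA minus WT2). The receptor Igf1r, through which both ligands signal, stood at 9.78 and 9.84 in the control and treated arrays of WT2 and at 9.64 and 9.59 in those of WTA. Its treatment differences were 0.06 and -0.06, and its span over all arrays was 0.25.

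Among the binding proteins Igfbp2, which also carries a motif for integrins, had 1 array apart from the others. Its level was 9.96 in the control array of WT2, against 8.22 in the treated array of that culture and 7.74 and 8.09 in the control and treated arrays of WTA. The difference with streptozotocin was -1.74 in WT2 and 0.35 in WTA. Over the groups it was -0.69. Without the control array of WT2 it was 0.41, a value that sets both treated arrays against the WTA control alone and mixes in the culture difference. The control array of WT2 also held the highest level of Igfbp5, Igf1, Igfbp6 and the dim Igfbp1.

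Igfbp3, the main carrier of these factors in blood, was higher with streptozotocin in both cultures, the only member with that pattern when a gene is taken from its brightest probe set. Its level was 9.97 and 10.26 in the control and treated arrays of WT2 and 11.08 and 11.22 in those of WTA, differences of 0.29 and 0.14. Of all 909 genes 22.1% were higher in both cultures and 30.1% lower in both, and of the 10 genes of the family 1 and 3. The third gene lower in both, beside Igf1 and Igfbp5, was Igfbp6, which prefers Igf2 as its ligand. It stood at 13.03 and 12.68 in WT2 and at 12.53 and 12.48 in WTA, differences of -0.35 and -0.05.

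The other binding proteins differed little. Igfbp4, an inhibitor of the ligands that a pregnancy-associated protease cuts, had 3 probe sets, all higher with streptozotocin in WT2 (0.11, 0.22 and 0.29) and lower in WTA (-0.24, -0.25 and -0.35). The brightest read 13.02 and 13.14 in the control and treated arrays of WT2 and 13.37 and 13.13 in those of WTA. Of the 3, 2 have identifiers ending in s or x, endings used for probes that may match more than 1 transcript, and all 3 gave the same directions. Igfbp7, a relative that binds the factors weakly, lay between 13.44 and 13.58 on the 4 arrays, and the sign of its difference over the groups turned with the scaling of the arrays (-0.02, and -0.01 to 0.03 after rescaling). Igfbp1, a liver protein that insulin represses, lay between 3.37 and 3.48, below the lower quartile of every array, so its flat level says little about its transcript. The median difference over the 10 genes was -0.04, beside -0.01 over all 909 genes.

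**Figure D2:**
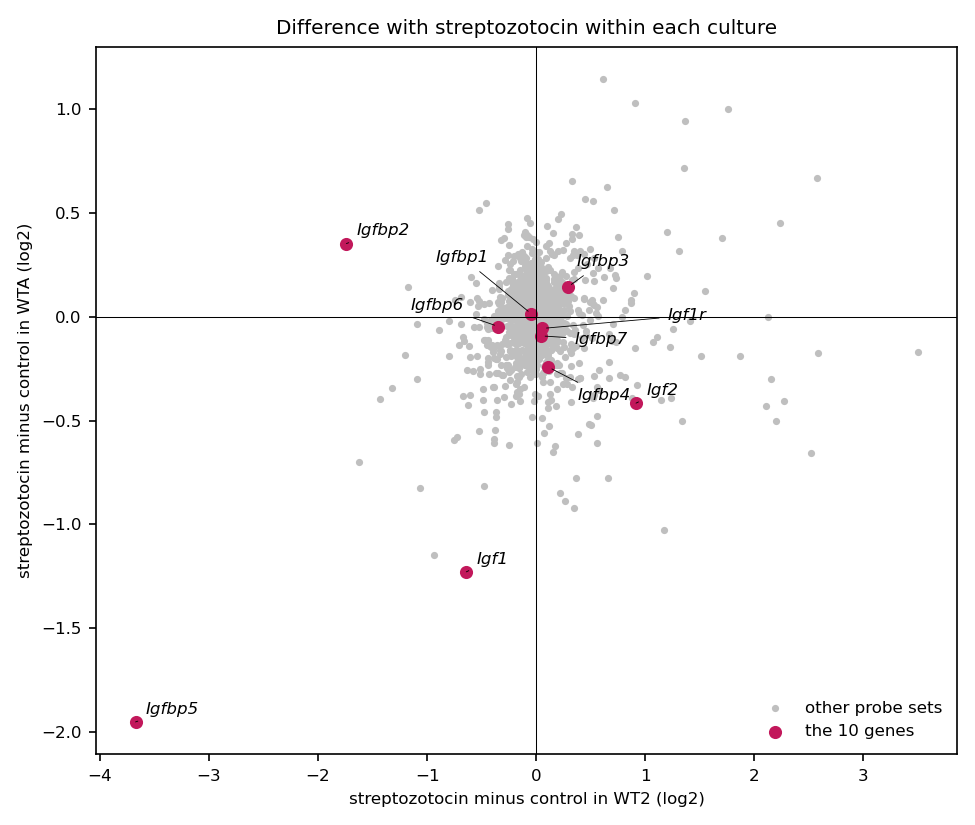
Streptozotocin minus control on the log2 scale within WT2 (x axis) and within WTA (y axis, on a wider scale), each point 1 probe set, with the 10 genes in pink at their brightest probe set and other probe sets in grey. Igfbp5 lies at -3.67 and -1.95, far from the other points, Igf1 at -0.64 and -1.23, and Igfbp2 at -1.74 and 0.35. Opposite signs in the cultures are found for 6 of the 10 genes and for 421 of all 909 genes.

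The cultures were then compared with each other, in a limma fit with treatment and culture, a contrast on which the family was not picked. Igfbp3 stood higher in WTA by 1.03 on the log2 scale (SE 0.10, 2.05-fold, limma adjusted p = 0.0445), with 1.11 between the control arrays and 0.96 between the treated ones. It was the only one of the 12 probe sets to pass, while 2.25% of all probe sets passed (28 of 1246). Its adjusted p lay between 0.0639 and 0.711 when an array was left out and the culture fitted alone, and at 0.0741 with the culture alone on all arrays, so the call rests on the setting. Without the control and the treated array of WT2 its adjusted p was 0.102 and 0.0639, and without those of WTA 0.451 and 0.711.

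At an unadjusted p under 0.05 limma had 5 of the 12 probe sets, Igfbp3 among them, against 16.9% of all; the other 4 did not pass after adjustment. Igf1 was lower in WTA by 1.44 (log2 difference -1.44, 95% interval -1.95 to -0.93, limma adjusted p = 0.0647), and its call depended on the setting. The adjusted p was 0.0361 after median centring, 0.108 after quantile normalization, 0.095 among probe sets above the median level, 0.335 with the culture alone, and 0.262 to 0.789 with an array left out, where the difference ran from -2.06 to -0.83. Igf2 was higher in WTA by 1.47 (0.45 to 2.49, limma adjusted p = 0.167), with 1.01 to 1.92 when an array was left out. For Igfbp5 the difference was -2.26 (-3.56 to -0.96, limma adjusted p = 0.135), with -3.12 between the control arrays and -1.40 between the treated ones. It was -0.42 without the control array of WT2, -4.10 without the treated array of WT2, -3.24 without the control array of WTA and -1.28 without the treated one, so single arrays decide its size. The Igfbp6 difference was smaller, -0.35 (-0.70 to -0.01, limma adjusted p = 0.290).

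For the remaining members the interval held 0. Igfbp2 had a difference of -1.17 with the widest interval of the family, -2.74 to 0.40, its control arrays being 2.22 apart and its treated arrays 0.12 (limma adjusted p = 0.422), and it ran from -2.04 to -0.30 with an array left out. The differences of Igf1r, Igfbp1, the brightest probe set of Igfbp4 and Igfbp7 were -0.20, -0.09, 0.17 and 0.07, and their intervals lay within -0.48 and 0.55. The WTA arrays did not overlap the WT2 arrays for 8 of 12 probe sets, against 49% of all probe sets; those of Igfbp5 and Igfbp4 overlapped. The median size of the culture difference was 0.29 over the 12 probe sets and 0.12 over all 1246, and with 1 probe set a gene it was 0.69 over the 10 genes and 0.13 over all 909. These p-values describe 2 named cell samples with 2 arrays each. They rest in part on how far the treated pair and the untreated pair of arrays gave unlike differences (1 residual degree of freedom). The larger weight falls on a spread that limma borrows from all probe sets (2.73 prior degrees of freedom). Further cell samples could spread more.

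**Figure D3:**
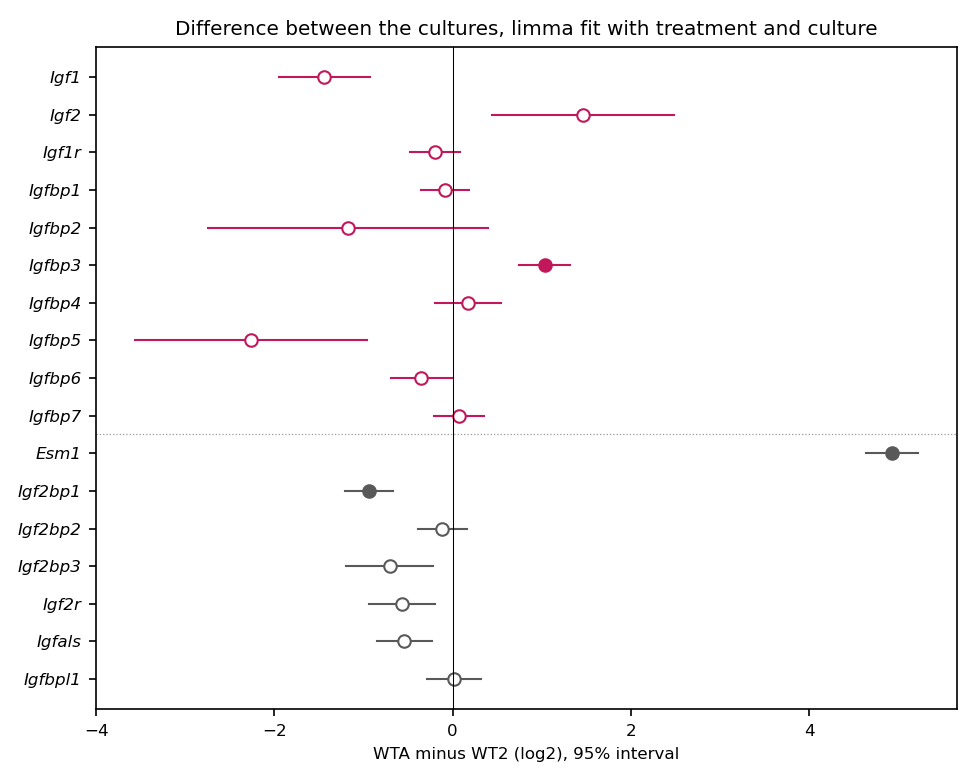
WTA minus WT2 on the log2 scale (x axis) with its 95% interval from limma for the 10 genes (pink, above the dotted line) and for the 7 other measured genes of the pathway (grey). Filled points passed an adjusted p under 0.05: Igfbp3 at 1.03 among the 10 genes, and Esm1 and Igf2bp1 below the line.

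Of 45 other genes tied to insulin-like growth factors or to insulin-like binding proteins, 7 were measured. With streptozotocin 0 of the 7 passed the limma test, and 0 of all 909 genes. Lower in both cultures were 3 (Igf2r, Igfals and Igf2bp1), 42.9% against 30.1% of the 909. Higher in both were 2 (Esm1 and Igfbpl1), 28.6% against 22.1%. The median difference was -0.02 over the 7 and -0.01 over the 909. The list was chosen with earlier results of these data known, so its counts describe it only. The 4 largest differences over the groups were 0.41 for Esm1, -0.33 for Igfals, -0.20 for Igf2r and 0.10 for Igfbpl1. Igfals, the subunit that ties Igfbp3 and a ligand into a large serum complex, read 6.97 and 6.53 in the control and treated arrays of WT2 and 6.32 and 6.10 in those of WTA. Igf2r, which takes Igf2 into the cell for breakdown, read 9.24 and 8.87 in WT2 and 8.51 and 8.47 in WTA. Igfbpl1 is a protein related to the binding proteins in sequence, and its level lay between 4.65 and 4.84.

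Between the cultures 2 of the 7 passed, Igf2bp1 and Esm1, beside 24 of all 909 genes. Igf2bp1, an RNA-binding protein known for binding the Igf2 message, was lower in WTA by 0.94 (difference -0.94, limma adjusted p = 0.0445), with 5.83 and 5.78 in the control and treated arrays of WT2 and 4.92 and 4.81 in those of WTA, all under the array medians. Its relative Igf2bp3 had a difference of -0.71 (limma adjusted p = 0.167) at its brightest probe set, whose identifier has the ending x. A second Igf2bp3 probe set, below the lower quartile on all 4 arrays, had -0.285 (limma adjusted p = 0.434). Igf2bp2 had a difference of -0.12 (limma adjusted p = 0.646). Esm1, an endothelial proteoglycan once grouped with the binding proteins, had the largest difference of the array, 4.93 (limma adjusted p = 0.00304). That probe set has the ending s, and a second Esm1 probe set had 2.93 (limma adjusted p = 0.0213). Esm1 is among the endothelial markers whose sums are given above. Igf2r and Igfals had differences of -0.57 and -0.54 (limma adjusted p = 0.156 and 0.135).

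To see which genes ran most like Igf1 and Igfbp5, each probe set's 4 values were taken less their own mean, and the root mean square difference from the member was measured against 962 named probe sets of other genes. For Igf1, whose own values lay 0.87 from their mean in this measure, the most similar were Clec11a (0.32), a secreted growth factor of bone, and Gfra1 (0.33), a co-receptor of neurotrophic factors. Cd34 (0.34), a sialomucin of progenitor and stromal cells, the fibroblast growth factor receptor Fgfr2 (0.34) and the sulfotransferase Chst2 (0.36) followed. All 5 were lower with streptozotocin in both cultures and lower in WTA than in WT2, as Igf1 was, and a choice by likeness to Igf1 favours such shared signs. Their streptozotocin differences in WTA, -0.59 to -0.38, were smaller in size than the -1.23 of Igf1. For Igfbp5, which lay 1.85 from its mean, the distances were much larger, 1.18 for Igf1, 1.19 for Angptl7 and 1.195 for Igfbp2, then 1.23 for Clec11a and 1.26 for Angptl1. Of these 5, Igf1, Clec11a and Angptl1 were lower with streptozotocin in both cultures, and Angptl7 and Igfbp2 in WT2 only, with 0.14 and 0.35 in WTA. Such likeness over 4 arrays is a description, and it says nothing of shared function or control.

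**Figure D4:**
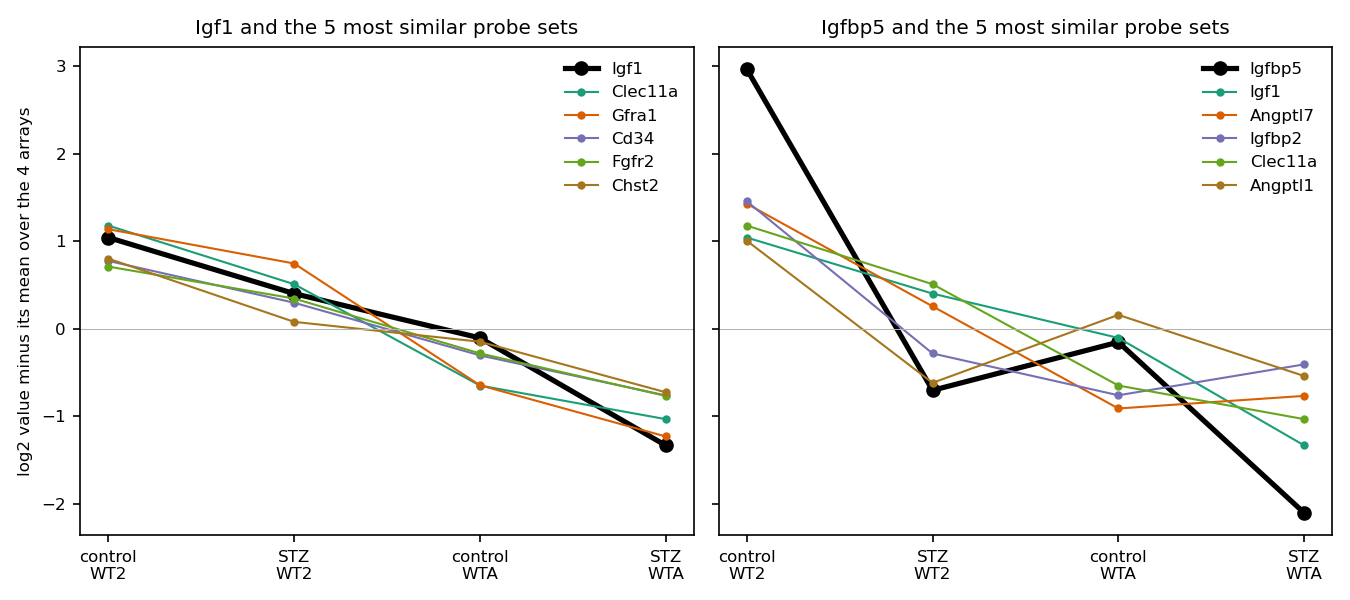
Log2 value less its mean over the 4 arrays (y axis) for Igf1 (left) and Igfbp5 (right) in black, each with its 5 most similar named probe sets in colour, for the control and streptozotocin (STZ) arrays of WT2 and WTA (x axis); lines only join the points of a gene. The 5 around Igf1 lie at 0.32 to 0.36 from it, with smaller drops in WTA (-0.59 to -0.38) than Igf1 (-1.23). Those around Igfbp5 have smaller spans than Igfbp5 itself and lie at 1.18 to 1.26.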

How the data were processed

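Total RNA of 4 cell samples was labelled as biotinylated cRNA by an Affymetrix procedure, per the labels' protocols. The authors deposited log2 values per probe set, and the submitters' processing notes name RMA. Its version, its settings and a genome build were not given in the sources used here. Because RMA usually forces the arrays onto a shared distribution, a change common to most genes would be hidden. Names came from the RefSeq accession in each identifier, matched without its version (assembly GRCm38.p6, for names and neighbours only): 963 of 1246 probe sets had 1 symbol, and 283 had none and stayed in the fits.

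Groups and replicate numbers came from the titles, whose mark 3w no label explains. Arrays with the same number share a culture name, which pairs them (correlation of deviations from the group means 0.600). Fits used limma 3.58.1 in R 4.3.3 (lmFit, eBayes, Benjamini-Hochberg over 1246 probe sets, threshold 0.05), without a block for streptozotocin (2 residual degrees of freedom) and with treatment and culture for the culture difference (1 residual degree). A gene with several probe sets was taken from the one with the highest mean.

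The members, the pathway list and the markers were chosen with earlier results of these data known. Named were all probe sets of the members, the 7 measured pathway genes (the 4 largest differences of each contrast by name, here nearly all), the 5 most similar patterns and the measured markers. As alternatives, the replicate block, leaving out each array, the culture term alone, rescaling by medians or quantiles, dropping the dimmer probe sets, trended or robust variance priors and averaging a gene's probe sets were tried.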

Additional observations from a re-analysis of the deposited data

Results flagged for a closer look

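For 6 of the 10 genes the streptozotocin difference had opposite signs in the cultures, with 1 pair of arrays in each, and the difference between the cultures was not tested, since a fit with both terms and their interaction has no residual degrees of freedom. The 2 largest such gaps, the difference in WTA less that in WT2, were 2.093 for Igfbp2 (-1.74 in WT2, 0.35 in WTA) and -1.33 for Igf2 (0.91 and -0.42). The gap was -0.35 for Igfbp4, -0.14 for Igfbp7, -0.11 for Igf1r and 0.058 for Igfbp1. Among all 909 genes, taken in the same way, 421 had opposite signs. By probe set, 8 of the 12 of the family and 594 of all 1246 did.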

How the results depend on the processing

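The streptozotocin fit called 0 of 1246 probe sets under each alternative: with the replicate block (80 at an unadjusted p under 0.05), with each array left out, and with the other scalings, filter and priors. The replicate block cannot change a member's difference in this balanced layout, so only its calls could move, and none changed after adjustment. Leaving out each array in turn, which unbalances the cultures, gave Igfbp5 differences of -4.37 to -1.25 and Igf1 differences of -1.80 to -0.067; the other 8 members changed sign in at least 1 such fit. Median centring, quantile normalization and the mean of a gene's probe sets moved no member's streptozotocin difference by more than the spread between the cultures, and turned the sign for Igfbp7. The culture fit called 28 probe sets, but 13 with the culture alone, 8 after quantile normalization, 2 of those above the median level, 49 with a robust fit, and 0 to 18 with an array left out; why was not tested. Igfbp3 kept its direction in each of the following fits, but most of them could not turn it. The culture alone and the filter leave its difference as it was. Both WTA arrays lay above both WT2 arrays, so leaving out 1 array cannot change the sign. Values for Igfbp3 were not computed with a trended or robust prior. It lost its call with the culture alone (1.03), after quantile normalization (1.06), among probe sets above the median level (1.03), and with an array left out (0.89 to 1.18). It kept the call after median centring. In the fits that leave out an array, the lone array of a culture is assumed to vary like the others.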
